A study of Mus musculus with 10 samples.

Results

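The 9 genes Lss, Cyp51, Tm7sf2, Msmo1, Nsdhl, Hsd17b7, Ebp, Sc5d and Dhcr7 encode the enzymes that make lanosterol and carry it towards cholesterol. They were picked by name from the 18381 genes of the count table, through their gene symbols in the GENCODE mouse M21 annotation, and each had a row there. They were chosen by a view of these same data in which sterol synthesis genes were higher with insulin-like growth factor 1 (IGF1). The IGF1 values and calls of the 9 genes therefore describe what the choice already used, and neither is read as a test. What their choice did not use is their level in control teeth, their promoter sequence and their neighbours on the chromosome.

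The RNA came from first lower molars of wild type C57BL/6JOlaHsd mouse embryos at embryonic day 14. Each tooth was kept in a hanging drop of medium for 6 h, which lets a whole tooth germ stay alive outside the jaw. Of each embryo, one molar received mouse recombinant IGF1, a growth factor of the insulin family, at 750 ng per ml. The molar of the other side received an equal volume of the carrier, PBS with BSA, and is called control here. There were 5 embryos, numbered 1, 2, 3, 4 and 6, hence 5 IGF1 and 5 control teeth, and each tooth was its own library. No tooth was taken without culture, so culture itself is shared by both groups. A whole molar mixes epithelium and mesenchyme, and in such a sample fewer cells of a type and less RNA per cell cannot be told apart. Libraries held 2845773 to 8403151 counts in control teeth and 3456634 to 8763113 in IGF1 teeth, and embryo 1 had the fewest in both groups.

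Cholesterol is made from acetyl-CoA through mevalonate, isoprenoid units and squalene. Lanosterol is the first ring-shaped sterol of this route, and the enzymes after it strip off methyl groups, shift and insert double bonds, and finally reduce them. When sterols in the endoplasmic reticulum run low, the transcription factor SREBP2 is released and switches on genes of the whole route, binding sterol regulatory elements together with the helper factors NF-Y and Sp1. Cholesterol is also attached to Hedgehog ligands, among them Sonic hedgehog, which tooth germs use as a signal.

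Because the 9 genes belong to one route and were high in the same teeth, their promoters were read for 4 short motifs. The windows are those of RefSeq on GRCm38.p6, with 250 bases before and 50 after the RefSeq start of each gene. All 9 genes matched an entry, and the first of 3 entries was used for Dhcr7. The stretch around the CCAAT box (the letters bound by NF-Y) nearest ahead of the start is shown for each gene that has one, since most members hold one. Dhcr7 has no CCAAT in its window, and its GGGCGG (an Sp1 box) is shown instead. Capitals mark the motif, which reads ATTGG or CCGCCC where it lies on the opposite strand.
Lss (chr10:76531533-76531557, + strand, motif at -62): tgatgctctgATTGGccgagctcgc
Cyp51 (chr5:4104712-4104736, - strand, motif at -29): ctgtccgccaCCAATctggtcctga
Tm7sf2 (chr19:6067883-6067907, - strand, motif at -47): cccagcgctgATTGGctactgtgct
Msmo1 (chr8:64733619-64733643, - strand, motif at -55): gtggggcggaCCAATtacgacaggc
Nsdhl (chrX:72918491-72918515, + strand, motif at -20): gactagcctcATTGGgcaaaatcat
Hsd17b7 (chr1:169969203-169969227, - strand, motif at -12): ccgagccttgATTGGtcgaggtgcg
Ebp (chrX:8193553-8193577, - strand, motif at -55): ccctgtactgATTGGttcgtcagat
Sc5d (chr9:42264310-42264334, - strand, motif at -24): ccggctgctgATTGGccggctgcct
Dhcr7 (chr7:143823009-143823034, + strand, motif at -148): ccgtgagaccCCGCCCccgcggagat
The CCAAT box was in 8 of 9 member windows, against 37.9% of all 27025 promoters and 38.9% of the 10717 promoters of tested genes. Positions are counted from the RefSeq start, and the boxes shown for Cyp51, Tm7sf2, Msmo1 and Hsd17b7 lie inside the longer gene spans that GENCODE gives below. In these 8 genes the nearest box ahead of the RefSeq start began at -62 to -12, and taking the nearest of several boxes itself draws the positions towards the start. Nsdhl held 4 CCAAT boxes, Msmo1 and Hsd17b7 held 3 each, Ebp held 2, and Lss, Cyp51, Tm7sf2 and Sc5d held 1 each. GGGCGG was in 9 of 9 windows, against 35.9% of all promoters and 63.6% of those of tested genes. The sterol regulatory element core, searched as TCACNCCAC, was in 0 of 9 windows without a mismatch, against 1.22% of all promoters. With 1 mismatch allowed it was in 4 of 9 (Cyp51, Msmo1, Nsdhl and Hsd17b7). That stands against 24.0% of all promoters and 25.0% of those of tested genes, so the looser search is matched by many promoters. The loose match of Nsdhl lies inside the span of Cetn2, a gene that runs the other way and is described below. The E-box CACGTG was in 2 of 9 (Hsd17b7 and Sc5d), against 7.24% of all promoters. Of the other genes of the route, the 8 that matched an entry (Acat2, Hmgcs1, Mvk, Pmvk, Mvd, Idi1, Lbr and Erg28) were read in the same way. CCAAT was in 6 of 8, GGGCGG in 7 of 8, the sterol element in 1 of 8 without a mismatch and in 2 of 8 with 1 mismatch allowed, and the E-box in 0 of 8. All motifs were searched on both strands, and the only overlap between different motifs of a member was in Msmo1, where a loose sterol element and a CCAAT box share 1 base. A match is a string of letters, and a missing one says only that the letters are not in that window.

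Across all genes, 14504 passed the filter on low counts and 1666 of them (11.5%) were called different with IGF1 at an adjusted p under 0.05 (edgeR's quasi-likelihood test with embryo as a block). Of the tested genes 6.72% were called higher and 4.76% lower. The median log2 fold change over all tested genes was -0.0038. All 9 members passed the filter, 8 of 9 were called higher beside that background of 6.72%, and only Ebp was not called. Since the choice of the genes used this contrast, nothing is read from the count. Values below are counts-per-million (CPM) in each tooth, always listed for embryos 1, 2, 3, 4 and 6 in that order, and the fold change is from the fit over the 5 pairs.

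Lss (chr10:76531588-76557138, + strand of GRCm38) encodes lanosterol synthase, which folds squalene epoxide into the ring system of lanosterol. Its control teeth read 49.1, 38.1, 53.3, 41.3 and 42.1 CPM. The IGF1 teeth read 194, 178, 171, 174 and 150 CPM. Every IGF1 tooth was far above every control tooth, and the fitted log2 fold change was 1.95 ± 0.09 (SE), or 3.88-fold. In exon sequence Lss shares 381 bases with an antisense gene, 4930483K19Rik, which is not in the table.

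Cyp51 (chr5:4081145-4104746, - strand) encodes the cytochrome P450 that starts the trimming of lanosterol by taking off the methyl group next to the D ring. Control teeth read 75.9, 75.4, 74.3, 65.0 and 90.1 CPM. With IGF1 they read 187, 206, 215, 215 and 227 CPM. The groups lie well apart, and embryo 6 was the highest in both; the log2 fold change was 1.47 ± 0.08 (SE), or 2.78-fold. Akap9, on the opposite strand, shares 166 exon bases with Cyp51 and was not called, at a log2 fold change of -0.06 ± 0.07 (SE).

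Tm7sf2 (chr19:6062821-6068373, - strand) encodes a sterol reductase for the double bond that the Cyp51 step leaves behind. It had the lowest counts of the 9 genes in control teeth. Control teeth read 7.90, 6.43, 7.91, 5.11 and 6.06 CPM, which rest on 23 to 67 counts a tooth. IGF1 teeth read 27.4, 14.4, 22.7, 26.5 and 21.1 CPM. The groups did not overlap, but embryo 2 gained least, at 1.13 on the log2 scale, and embryo 4 most, at 2.31. The fitted value was 1.72 ± 0.17 (SE), or 3.29-fold. Vps51 lies on the same strand and shares 532 exon bases with Tm7sf2, so reads there could be split between them; Vps51 was not called, at -0.13 ± 0.11 (SE).

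The next 3 genes act together to remove the paired methyl groups of the A ring. Msmo1 (chr8:64718139-64733792, - strand) encodes the oxidase that attacks these methyl groups first. Its control teeth read 29.5, 39.0, 38.2, 29.9 and 35.1 CPM. Its IGF1 teeth read 115, 130, 169, 134 and 122 CPM. All IGF1 teeth were above all control teeth and embryo 3 stood highest with IGF1; the log2 fold change was 1.96 ± 0.09 (SE), or 3.89-fold, close to that of Lss.

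Nsdhl (chrX:72918557-72958514, + strand) encodes the dehydrogenase that splits off the oxidised carbon. Control teeth read 10.3, 17.7, 16.2, 14.8 and 19.1 CPM. IGF1 teeth read 68.8, 53.4, 58.3, 61.4 and 59.7 CPM. Embryo 1 gave both the lowest control and the highest IGF1 tooth, so its own log2 difference of 2.70 was the largest of any member in any embryo. The fitted value was 1.91 ± 0.14 (SE), or 3.77-fold.

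Hsd17b7 (chr1:169949535-169969241, - strand) encodes the ketoreductase that completes each round of methyl removal. Control teeth read 10.3, 14.0, 9.80, 8.65 and 13.6 CPM. IGF1 teeth read 28.2, 28.5, 41.4, 38.4 and 31.1 CPM. The embryos with the lowest controls, 3 and 4, had the highest IGF1 teeth, and the per-embryo log2 differences ran from 1.01 to 2.11. The fitted value was 1.58 ± 0.17 (SE), or 2.99-fold.

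Ebp (chrX:8185329-8193512, - strand) encodes the isomerase that moves the remaining ring double bond towards its later place. Control teeth read 16.1, 15.9, 17.4, 13.9 and 15.1 CPM. IGF1 teeth read 31.1, 21.5, 18.0, 19.3 and 20.8 CPM. The groups did not overlap, but the lowest IGF1 tooth (18.0) was next to the highest control tooth (17.4), both from embryo 3, and the tooth of embryo 1 stood apart above the other IGF1 teeth. The log2 fold change was 0.45 ± 0.13 (SE), or 1.37-fold. Per embryo it ran from 0.05 to 0.93, which is below the 1.01 that was the lowest value of any other member in any embryo. Ebp lay at the edge of the call, with an adjusted p of 0.0502 (edgeR) that is given as a description. Its log2 fold change was 0.35 without embryo 1 and 0.55 without embryo 3, and it was called in 4 of 13 fits, that without embryo 3 among them. Its promoter window, shown above, holds 2 CCAAT boxes and 1 GGGCGG.

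Sc5d (chr9:42251595-42264256, - strand) encodes the desaturase that inserts a further double bond into the B ring. Control teeth read 24.7, 37.0, 37.2, 29.4 and 35.9 CPM. IGF1 teeth read 70.8, 85.8, 99.6, 81.2 and 87.5 CPM. Teeth kept nearly the same order of embryos in both groups, with embryo 1 lowest and embryo 3 highest; the log2 fold change was 1.37 ± 0.08 (SE), or 2.59-fold.

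Dhcr7 (chr7:143823145-143848410, + strand) encodes the reductase of the last step of one branch of the route, which makes cholesterol itself. Control teeth read 27.1, 25.1, 29.5, 27.8 and 22.7 CPM. IGF1 teeth read 110, 76.8, 76.6, 96.8 and 78.4 CPM. Controls were close together while embryos 1 and 4 stood higher with IGF1, and the log2 fold change was 1.70 ± 0.10 (SE), or 3.25-fold.

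**Figure D1:**
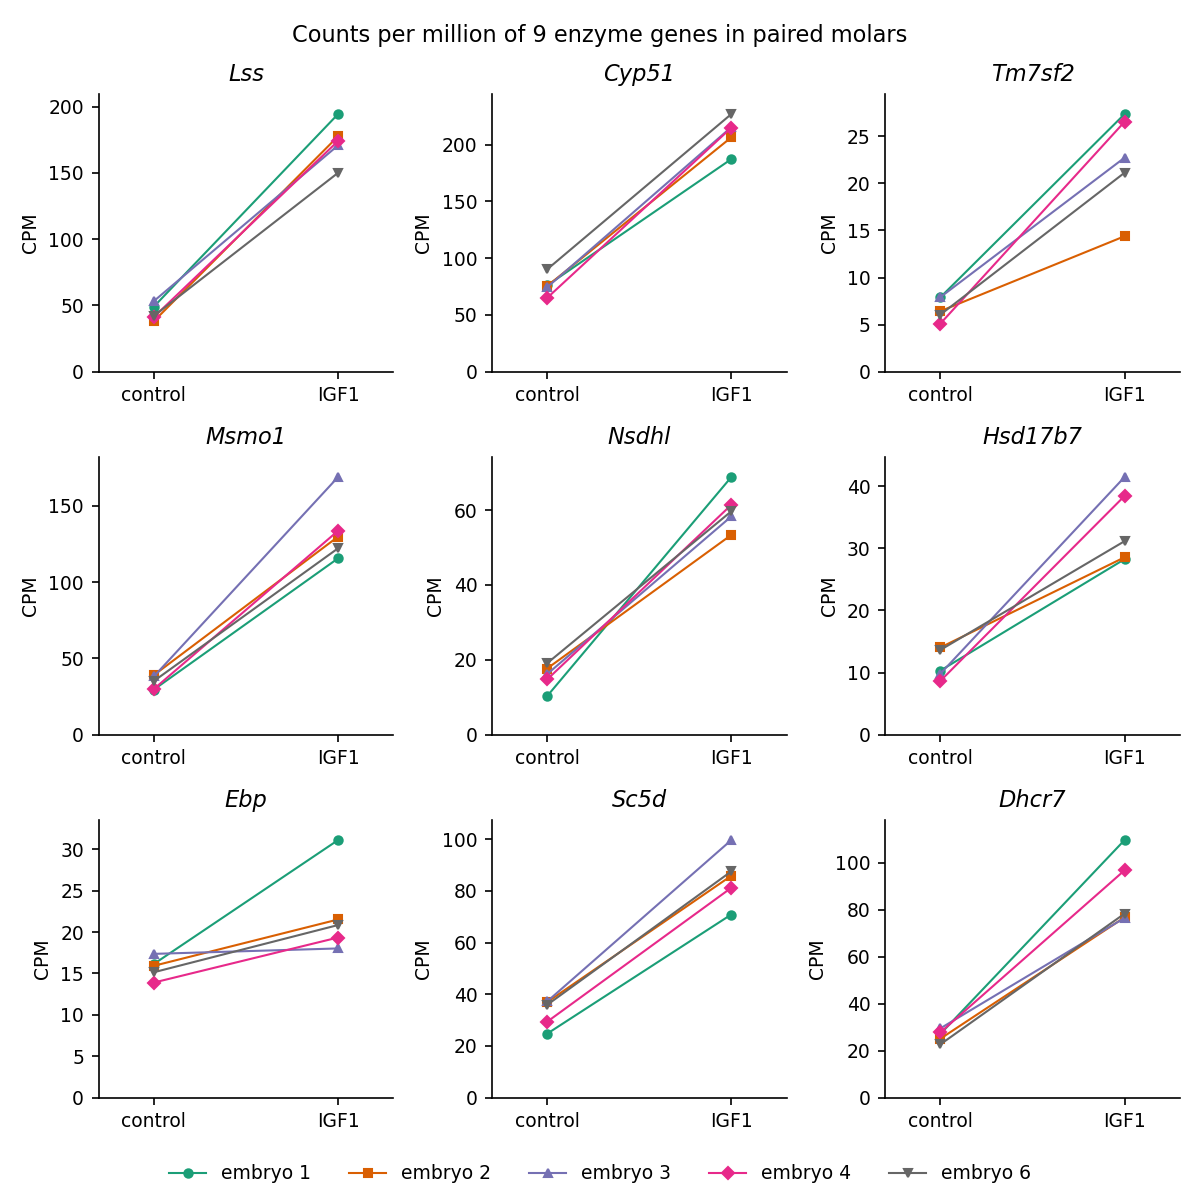
Level of each enzyme gene in counts-per-million (CPM, vertical axis from 0, own scale per panel) in the control and the IGF1 tooth of each of 5 embryos; a line joins the teeth of an embryo. Each of the 9 genes is higher with IGF1 in 5 of 5 embryos, and Ebp has the flattest lines, with embryo 3 going from 17.4 to 18.0 CPM.

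Summed over the 9 genes, control teeth held 236 to 284 CPM and IGF1 teeth 794 to 871 CPM, which is 3.14-fold between the means. The sum was 3.32-, 2.96-, 3.07-, 3.59- and 2.85-fold higher with IGF1 in embryos 1, 2, 3, 4 and 6. The median log2 difference of the members was 1.75, 1.45, 1.53, 2.04 and 1.63 in the same order. Single members ranked the embryos differently. The difference was largest in embryo 4 for Cyp51, Tm7sf2, Msmo1 and Hsd17b7, in embryo 1 for Nsdhl, Ebp, Sc5d and Dhcr7, and in embryo 2 for Lss. It was smallest in embryo 2 for 5 members (Tm7sf2, Msmo1, Nsdhl, Hsd17b7 and Sc5d), in embryo 3 for Lss, Ebp and Dhcr7, and in embryo 1 for Cyp51.

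**Figure D2:**
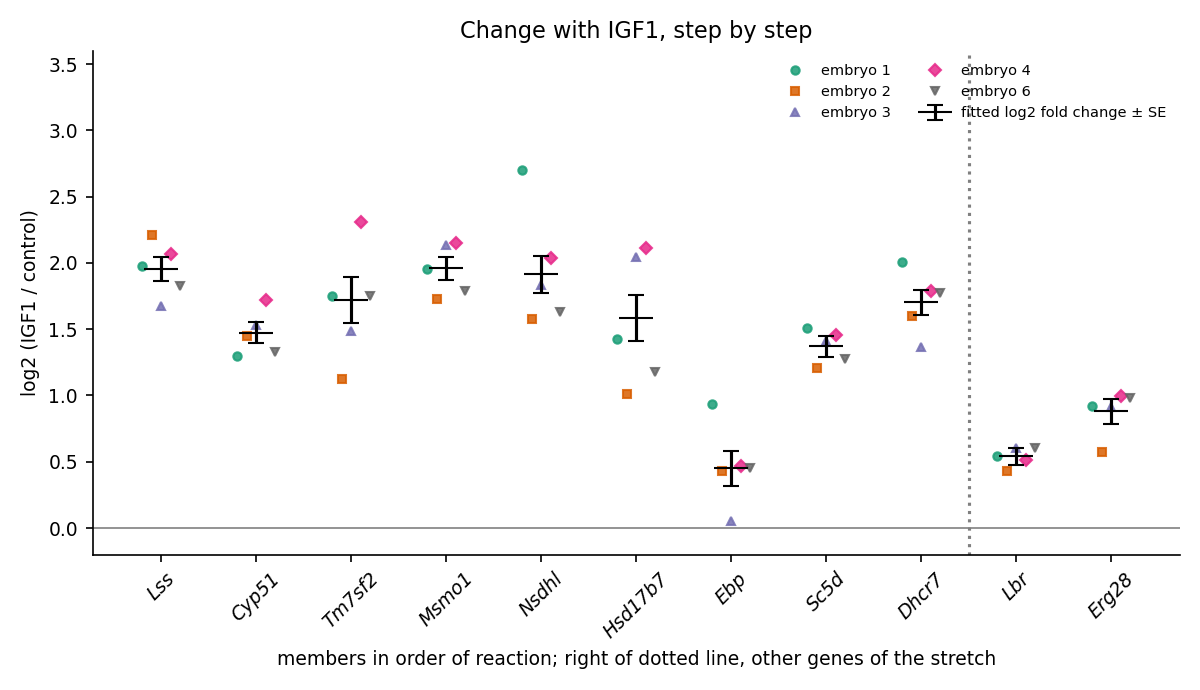
Log2 of IGF1 over control (vertical axis) for each enzyme gene in order of reaction, with Lbr and Erg28 right of the dotted line; coloured symbols are single embryos and black bars the fitted value ± SE. The members other than Ebp lie between 1.37 and 1.96, Ebp lies at 0.45 and Lbr at 0.54.

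Of 4 further genes that serve the same stretch, 3 were tested and all 3 were called higher; Faxdc2 did not match a row. Lbr, the lamin B receptor of the inner nuclear membrane, carries the same reductase activity as Tm7sf2. It read 80.4 to 91.3 CPM in control and 115 to 124 CPM in IGF1 teeth, and its log2 fold change was 0.54 ± 0.07 (SE), below the 1.72 of Tm7sf2. Erg28, a small membrane protein that holds the methyl-removing enzymes together, read 22.0 to 29.2 and 43.5 to 49.5 CPM, at 0.88 ± 0.09 (SE). Neither gene overlapped between groups, and both were higher with IGF1 in 5 of 5 embryos.

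The steps ahead of lanosterol, from acetyl-CoA to squalene epoxide, were called higher in 10 of 10 listed genes with a median log2 fold change of 1.58. The median of the 9 members was 1.70. By the rule for named genes, the largest values were those of Mvd (mevalonate diphosphate decarboxylase, 2.23 ± 0.12 SE) and Idi1 (isopentenyl diphosphate isomerase, 2.003 ± 0.12 SE). The smallest were those of Mvk and Pmvk, the first and second kinases of the route, at 1.23 ± 0.11 and 1.11 ± 0.14 (SE). This list shares its choice with the members and is no independent evidence of their direction.

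Side branches take isoprenoids away from sterols. Of 9 listed genes for prenylation, ubiquinone and dolichol synthesis, 0 were called by edgeR, beside 11.5% of all tested genes. For so few genes 0 is near that share, and nothing is read from it. Their median log2 fold change was 0.12. The highest were Pdss1 (ubiquinone side chain, 0.29 ± 0.15 SE) and Nus1 (dolichol synthesis, 0.26 ± 0.08 SE), and the lowest were Pggt1b (a geranylgeranyl transferase, 0.02 ± 0.10 SE) and Pdss2 (0.05 ± 0.16 SE). Under an unadjusted threshold, 2 of the 9 had a p under 0.05, and DESeq2 and limma-voom also called 0.

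Msmo1, Sc5d and Cyp51 draw electrons from other redox proteins. Of 6 genes listed for this supply of electrons, 2 were called higher and 0 lower, with a median of 0.17. Cyb5b, a cytochrome b5, had 0.85 ± 0.09 (SE), and Por, the reductase that feeds P450 enzymes, 0.38 ± 0.08 (SE). Cyb5a had -0.03 ± 0.07 (SE) and Pgrmc1, a heme protein that binds P450 enzymes, 0.04 ± 0.07 (SE); neither was called.

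Among 13 genes of sterol sensing, uptake and transport, 7 were called higher and 1 lower, with a median of 0.90. Stard4, Insig1, Scarb1, Srebf1 and Srebf2 were among the 7. Stard4, a cytosolic sterol carrier, had 1.54 ± 0.08 (SE). Mbtps1, a protease that frees SREBP, was called lower at -0.31 ± 0.07 (SE), and the lysosomal exporter Npc1 had -0.18 ± 0.09 (SE) and was not called.

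Sterol efflux and storage draw on the cholesterol already made. Of 8 genes tested (Cyp27a1 did not pass the filter), 1 was called higher and 2 lower, with a median of -0.20. Abca1, which loads cholesterol onto lipoproteins, read 223 to 259 CPM in control and 105 to 183 CPM in IGF1 teeth, at -0.83 ± 0.11 (SE) and lower in 5 of 5 embryos. Apoe, a lipoprotein component, was lower at -0.42 ± 0.09 (SE). Soat1, which esterifies cholesterol for storage, was higher at 0.44 ± 0.10 (SE). Nr1h3, the sterol-activated receptor LXR alpha, was scarce, at 1.36 to 2.60 CPM in control teeth, and had 0.01 ± 0.35 (SE). In all, 26 of the 49 tested genes of these 6 lists were called in either direction, beside 11.5% of all tested genes. The lists were chosen with earlier results of these data known, so this count is a description only.

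**Figure D3:**
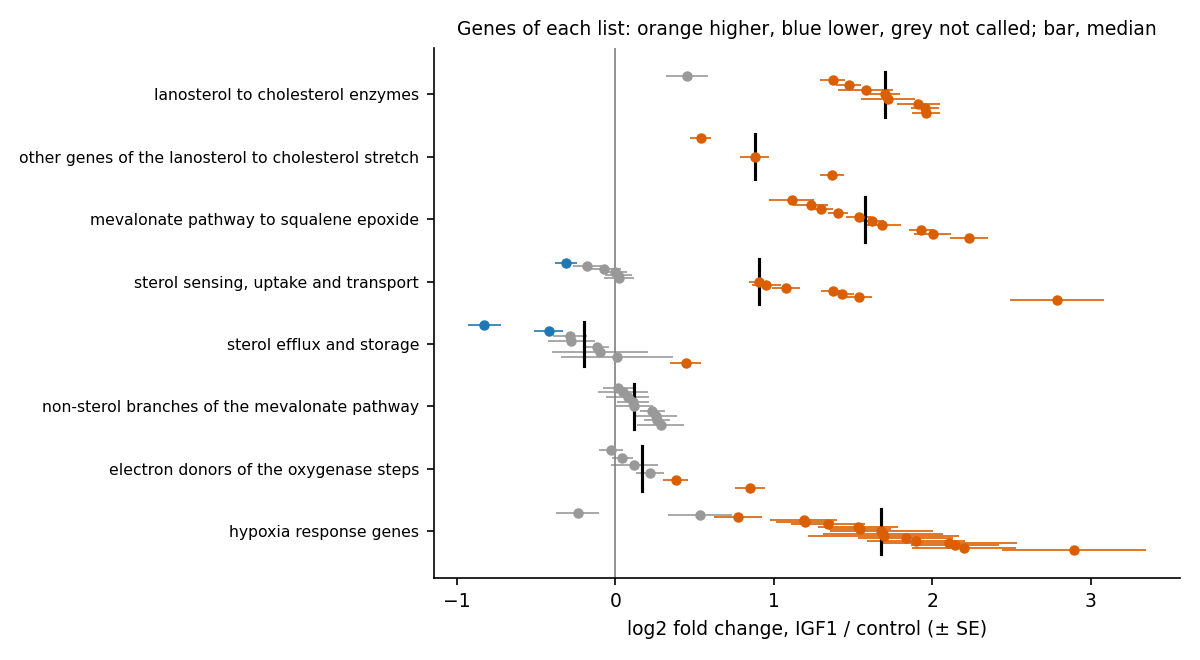
Log2 fold change of IGF1 over control (horizontal axis, ± SE) of each tested gene, grouped by list; orange genes were called higher, blue lower, grey not called, and black bars are list medians. Genes of the lanosterol stretch and of the mevalonate route lie to the right with medians of 1.70 and 1.58, and efflux genes lie around a median of -0.20.

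Other gene groups moved in the same teeth. Of 17 tested hypoxia response genes, a list taken up because these data had shown it to be high, 15 were called higher, with a median of 1.68. Their summed level was 1044 to 1554 CPM in control and 1957 to 6725 CPM in IGF1 teeth, and Car9 was at 0 in at least 1 tooth. Their median log2 difference was 0.54, 2.75, 2.47, 0.94 and 0.79 in embryos 1, 2, 3, 4 and 6, whereas that of the members was highest in embryo 4 and lowest in embryo 2. Without embryos 2 and 3, a choice made after these values were seen, the median log2 fold change of the members was 1.85, which is a description and no test of hypoxia.

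Markers of both tissues of a molar were present, with sums led by genes that other organs use too (Krt5 in epithelium, Col3a1 and Vim in mesenchyme), and no other tissue was measured beside them. Epithelial markers summed to 1872 to 2711 CPM in control and 2094 to 2881 in IGF1 teeth, with 1 of 12 called higher (Krt5) and 1 lower (Cdh3). Mesenchymal markers summed to 6628 to 8148 and 5760 to 7483 CPM, with 3 of 12 called lower (Pdgfra, Pdgfrb and Vim). Red blood cell markers summed to 485 to 791 and 349 to 511 CPM, with 3 of 4 tested called lower (Hba-a1, Hbb-bs and Hbb-y). Endothelial markers summed to 331 to 378 and 263 to 344 CPM, with 1 of 6 called lower (Cdh5). Macrophage markers summed to 48.3 to 73.9 and 39.0 to 65.4 CPM, with 1 of 5 tested called lower (Csf1r). Schwann cell markers summed to 72.5 to 96.5 and 67.4 to 80.5 CPM, and skeletal muscle markers to 25.1 to 97.9 and 13.8 to 122 CPM. Osteoblast markers summed to 49.8 to 289 and 33.5 to 634 CPM, and among them Ibsp read 495 CPM in the IGF1 tooth of embryo 2. Of Schwann cell, skeletal muscle and osteoblast markers, 0 of 7 tested were called by edgeR, DESeq2 or limma-voom, and 0 had an unadjusted p under 0.05. Sox10 and Foxd3 of the Schwann cell list, Myog of muscle and Bglap of osteoblasts were at 0 in at least 1 tooth. The part of hypoxia genes or of cell types in the values of the members was not tested.

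In control teeth the 9 genes differed in level, which is compared here in CPM per kb of merged exons. Cyp51 was highest, at 17.2 ± 2.04 CPM per kb (SD, n = 5), and Tm7sf2 lowest, at 1.52 ± 0.28, a ratio of 11.4, which was 4.34 per kb of the longest coding transcript. Between them came Ebp at 6.79 ± 0.55, Sc5d at 6.75 ± 1.14, Msmo1 at 5.59 ± 0.73, Nsdhl at 5.47 ± 1.18, Dhcr7 at 4.55 ± 0.45, Lss at 4.15 ± 0.58 and Hsd17b7 at 2.21 ± 0.47. The ranges over the 5 teeth were apart between Cyp51 and Ebp and between Lss and Hsd17b7, while all other neighbours in the order overlapped. The order thus has gaps after Cyp51 and after Lss, and the 6 genes from Ebp to Lss each overlapped the next in order. In IGF1 teeth the order was Cyp51, Msmo1, Nsdhl, Sc5d, Lss, Dhcr7, Ebp, Hsd17b7 and Tm7sf2, so that Ebp went from place 2 to place 7 on this scale. Per kb of the longest transcript Ebp went from place 4 to 7, and per kb of the longest coding transcript from 5 to 8.

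The order in the middle depends on the length used. Merged exons of Lss come to 10787 bases, while its longest coding transcript has 4667. Per kb of the longest coding transcript, the order in control teeth was Cyp51, Msmo1, Lss, Dhcr7, Ebp, Nsdhl, Sc5d, Tm7sf2 and Hsd17b7. Cyp51 (19.4 ± 2.29 CPM per kb) and Msmo1 (16.8 ± 2.18) then overlapped, and Tm7sf2 and Hsd17b7 were still the lowest, at 4.46 ± 0.81 and 2.45 ± 0.52 (SD, n = 5).

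**Figure D4:**
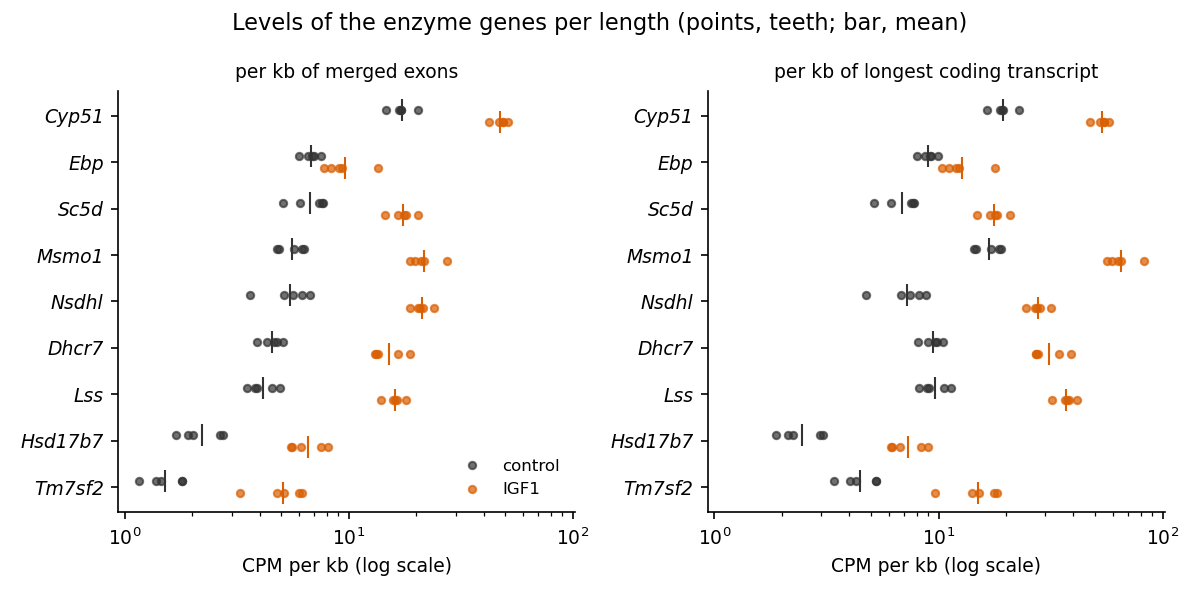
Level of each enzyme gene per length (horizontal log axis, CPM per kb) in 5 control (grey) and 5 IGF1 teeth (orange), per kb of merged exons at left and of the longest coding transcript at right; bars are means. Cyp51 leads in control teeth on both scales (17.2 and 19.4 CPM per kb), and Hsd17b7 and Tm7sf2 are the lowest.

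The members lie on 8 chromosomes, with Nsdhl and Ebp both on X, and none within 500 kb of another. Their tested protein coding neighbours within 500 kb, measured between the lower coordinates of the genes, were 108. Of these, 11 (10.2%) were called with IGF1, beside 12.0% of all tested protein coding genes. The order turned with limma-voom, at 13.9% beside 12.5%, and without the embryo block, at 6.48% beside 6.40%. It also turned without embryo 1, at 9.17% beside 8.05%. With 1 embryo left out, 6 to 10 neighbours were called, the fewest without embryo 6 (5.50% beside 7.13%). The log2 fold changes of the 108 neighbours ran from -1.05 to 0.79 with a median of 0.04. Those of the members ran from 0.45 to 1.96, but their choice used these values, so the gap is no result. Lss, Cyp51, Msmo1 and Sc5d are grouped here because edgeR called none of their neighbours, so its 0 of 24 follows from the grouping. Of these 24, 4 had an unadjusted p under 0.05, while DESeq2 called 0 and limma-voom 1. Around Tm7sf2, in a gene-rich stretch, 5 of 41 were called, all higher (Mrpl49, Syvn1, Pola2, Men1 and Map4k2, from 0.26 to 0.58). Around Hsd17b7, Uap1 was higher (0.58 ± 0.07 SE) and Rgs4 lower (-0.64 ± 0.16 SE). Around Ebp, Wdr45 was lower (-1.05 ± 0.13 SE), and around Dhcr7, Cdkn1c was higher (0.49 ± 0.08 SE).

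Nsdhl and Dhcr7 each share their start region with a gene that runs the other way. Cetn2, which encodes a centrin of the centriole, starts 146 bases from Nsdhl. Its control teeth read 14.4, 19.4, 13.9, 13.2 and 18.6 CPM, and its IGF1 teeth 20.4, 21.3, 24.1, 21.03 and 27.1 CPM. The groups did not overlap, and Cetn2 was called higher, at 0.53 ± 0.12 (SE; adjusted p = 0.0195, edgeR), beside 1.91 for Nsdhl. Zfp275, the other called neighbour of Nsdhl, had 0.32 ± 0.06 (SE). Nadsyn1, an enzyme of NAD synthesis, starts 296 bases from Dhcr7 and was not called, at 0.27 ± 0.17 (SE; adjusted p = 0.36).

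**Figure D5:**
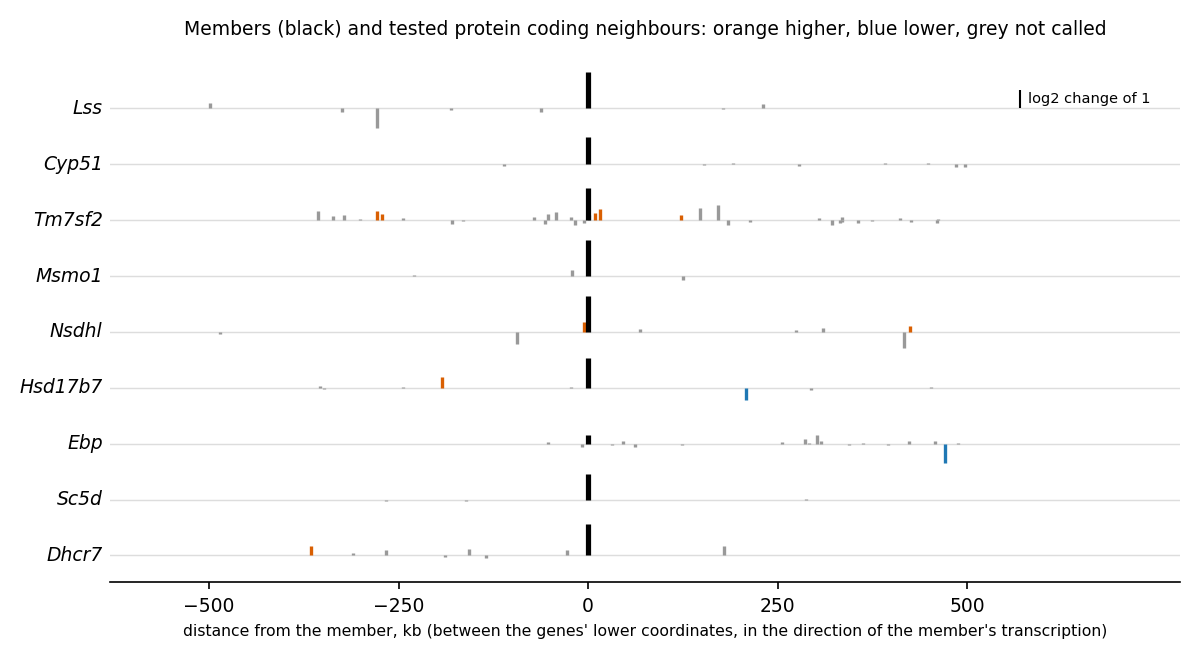
Tested protein coding genes within 500 kb of each enzyme gene, placed by distance in kb (horizontal axis, in the member's direction of transcription); bar height is the log2 fold change with IGF1, black for the member, orange for neighbours called higher, blue for lower, grey for not called. Of 108 neighbours 11 were called, 5 of them around Tm7sf2. Every member but Ebp, at 0.45, has a bar taller than the highest neighbour, at 0.79. The members were chosen from this contrast, so their taller bars follow from that choice.

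The genes most like the members over the 10 teeth, by Pearson's r with their mean log2 CPM, were Hmgcs1 (0.996), Scd1 (0.9896), Fdps (0.989), Sqle (0.988) and Scd2 (0.988). Hmgcs1, Fdps and Sqle belong to the steps ahead of lanosterol, and Scd1 and Scd2 are fatty acid desaturases. Scd1 went from 39.0 CPM in the mean of control teeth to 223 CPM with IGF1, and Scd2 from 711 to 2103 CPM. Each member was also set against the mean of the other 8. Here r was 0.957 to 0.986 for the 8 members other than Ebp and 0.753 for Ebp. The 10 teeth fall into an IGF1 and a control group on these genes and share their libraries, so that r mostly tells how far apart the groups are.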

How the data were processed

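RNA of single cultured molars was made into libraries with the Ovation Mouse RNAseq System. The authors deposited 1 table of estimated counts per gene, without normalization. The submitters' processing notes name FastQC 0.11.8, Trimmomatic 0.39, Salmon 0.99.0, DESeq2 and GRCm38, and the transcript set and the filter behind the table are not given in the sources used here. All values were whole numbers, so rounding changed none, and every gene had at least 10 counts over the 10 samples. Salmon can split reads between overlapping or similar genes, which touches Tm7sf2, Cyp51 and Lss. The paper read for style does not describe this experiment, and nothing else was taken from it.

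Groups and embryo numbers came from the sample labels. Counts were scaled by TMM, filtered by filterByExpr and tested with edgeR 4.0.16 (quasi-likelihood test, R 4.3.3) on all 10 samples with embryo as a block, and p-values were adjusted by Benjamini-Hochberg over 14504 genes, with 0.05 as the threshold. CPM are from TMM library sizes, and log2 CPM of single embryos carry a prior count of 2. The standard error is the log2 fold change over the root of F. The labels take both teeth from the same embryo, and deviations of paired teeth from their group means correlated at 0.319, 0.208, -0.0389, 0.170 and 0.313, against a median of -0.0463 between embryos. No 2 libraries of a group agreed within sampling noise. The fit was also run on simulated counts, and no result of that run is used here. Names, positions and lengths came from GENCODE M21 (18287 of 18381 identifiers matched, 94 did not), and promoter sequences from RefSeq (GRCm38.p6). Protein sequences were not used here. Some genes of the lists are counted but not reported by name here.

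The members and all gene lists were chosen with earlier results of these data known. Named were all members; of each other sterol list, all genes up to 4, otherwise the 2 highest and 2 lowest log2 fold changes; called neighbours; the 5 genes most like the members; and, of marker lists, called genes up to 4 and those at 0. Genes named beyond this rule were chosen after their values were seen. Alternatives were no block, DESeq2 1.42.0 size factors, DESeq2's Wald test (1125 adjusted p-values left as NA), limma-voom (limma 3.58.1), no filter or at least 10 counts in every sample, each embryo left out, other gene lengths, a window of 1 Mb and motifs without a mismatch. Leaving out embryos 2 and 3, and the coding length, were added after seeing the data.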

Additional observations from a re-analysis of the deposited data

Results flagged for a closer look

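In each group of 5 teeth, the CPM of 32 named genes were read for a lone tooth far from the others, by Dixon's ratio of its gap to the whole range (above 0.71). This gave 4 of 64 groups, where chance at 1 in 20 gives 3.2. Of the 18 groups of members, 1 was among them. Ebp in the IGF1 tooth of embryo 1 read 31.1 CPM, against 18.0 to 21.5 in the other IGF1 teeth (ratio 0.733). That tooth comes from the pair with the fewest counts. Without embryo 1, the log2 fold change of Ebp was 0.35 instead of 0.45. The remaining 3 were in other genes of sterol metabolism. Lbr in the IGF1 tooth of embryo 4 read 115 CPM, against 122 to 124 in the others (ratio 0.747). Idi1 in the IGF1 tooth of embryo 3 read 231 CPM, against 149 to 167 (ratio 0.789). Nr1h3 in the control tooth of embryo 3 read 2.60 CPM, against 1.36 to 1.46 (ratio 0.921), at counts too low for a firm reading.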

How the results depend on the processing

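The fits besides the reported one left 8 or 9 members called, with a median log2 fold change of 1.55 to 1.85. The members other than Ebp were called in all 13 fits. Ebp was called in 4 of 13, with log2 fold changes of 0.35 to 0.60: with DESeq2 size factors, with at least 10 counts in every sample, without embryo 3, and without embryos 2 and 3. The other sterol lists had 24 to 27 genes called. Without the replicate block, 887 genes were called over the whole table instead of 1666, and 7 neighbours instead of 11, while 8 members and 24 genes of the other lists were called. Leaving out 1 embryo gave 986 to 1602 called genes, the fewest without embryo 4 (986) and embryo 6 (994), and 6 to 10 called neighbours, with 7 without embryo 2, 7 without embryo 4 and 6 without embryo 6; fewer samples were tested there. The share of neighbours called was above that of all protein coding genes with limma-voom (15 of 108, 13.9% against 12.5%), without the replicate block (6.48% against 6.40%) and without embryo 1 (9.17% against 8.05%), and below it in the other fits, among them at least 10 counts in every sample (13.3% against 14.7%). Within 1 Mb, 23 of 207 neighbours (11.1%) were called. The ratio of the highest to the lowest control level among members was 8.94 per length of the longest transcript (Cyp51 over Tm7sf2) and 7.92 per coding length (Cyp51 over Hsd17b7; Cyp51 over Tm7sf2 was 4.34) instead of 11.4, and 10.6 to 12.0 with 1 embryo left out. With 0 mismatches, 0 instead of 4 members held the sterol element core. Depth limits Tm7sf2, Nsdhl and Hsd17b7 most, at 23 to 30 counts in the shallowest control tooth.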
